A study of Homo sapiens and Mus musculus with 20 samples.

Results

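The binding sites of a pair of Satb1 truncations were compared in MCF10A cells, an epithelial line from the human mammary gland without Satb1 of its own. The ∆HD construct keeps the N-terminal dimerization domain, CUT1 and CUT2 and lacks the homeodomain. The N-C1 construct keeps the N-terminal domain and CUT1 and lacks CUT2 as well as the homeodomain, so the lists differ in CUT2 and neither protein has a homeodomain. Both were expressed inducibly as eGFP fusions, in lines sorted through the same fluorescence gate, and both were precipitated with a GFP antibody. The labels do not say whether a line is 1 clone, and neither construct was treated with a drug. Peak lists of full-length Satb1, which has the homeodomain, served for comparison. They came from untreated MCF10A cells and from cells treated briefly with camptothecin, a topoisomerase I inhibitor, or with a topoisomerase II inhibitor. ATAC-seq lists came from native MCF10A cells and from cells expressing Satb1. The members are all peaks of the ∆HD list (50537) and of the N-C1 list (62856), or 113393 of the 241914 peaks in all ChIP-seq lists of the series. A peak was called shared when it overlapped a peak of the other list by 1 bp or more in hg19, and unshared otherwise. The study reports that replicate ChIP-seq data of the constructs correlated highly. Each construct has 1 peak list here without a replicate list, so the spread between replicates could not be measured. Differences are therefore given without a test.

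Satb1 is a nuclear protein that binds A/T-rich DNA and has been tied to genome organization in thymocytes and to breast cancer progression. CUT domains and homeodomains are both helix-based DNA-binding modules, and proteins of the CUT class carry them side by side. MACS2 lists a peak where reads pile up above the local background, and its fold enrichment is the height of the pileup over that background. Lack of a listed peak does not show lack of binding, since signal under the threshold is left out and the depth of each list is not given in the sources used here. Values in brackets are 95% intervals, by the exact Clopper-Pearson method for shares and over peaks for means. They cover counting error only, and neighbouring peaks are not independent.

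The Satb1 consensus was searched as 7-base words on both strands, with overlapping matches counted, in 400 bp at the midpoint of each peak. It has 4 forms. The first is CTAATAA, which reads as TTATTAG on the other strand. The second is CTAATAG, which reads as CTATTAG. The third is TTAATAA, which reads as TTATTAA, and the fourth is TTAATAG, which reads as CTATTAA. At least 1 match was held by 25.8% of all 400 bp tiles of hg19, and a tile held 0.322 matches on average. The sequences that follow show 150 bp of the plus strand of hg19 centred on the summits of the strongest peaks of each kind, to show how many consensus matches each kind holds and how they are arranged. Capitals mark consensus matches. The first set holds the 3 shared pairs with the lowest summed ranks of fold enrichment, at the N-C1 summit. They lie between genes on chromosome X, 633 kb from the cancer/testis gene CT83 (chrX:116227171-116227320), in an intron of GPC6, which encodes a glypican (chr13:94070822-94070971), and in an intron of KDM5A, which encodes a histone H3K4 demethylase (chr12:441857-442006).
CT83: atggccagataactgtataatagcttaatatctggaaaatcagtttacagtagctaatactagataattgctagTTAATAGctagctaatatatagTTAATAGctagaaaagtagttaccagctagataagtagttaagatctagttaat
GPC6: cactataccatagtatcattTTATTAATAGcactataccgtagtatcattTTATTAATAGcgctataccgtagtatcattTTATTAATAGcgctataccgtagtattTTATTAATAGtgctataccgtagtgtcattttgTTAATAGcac
KDM5A: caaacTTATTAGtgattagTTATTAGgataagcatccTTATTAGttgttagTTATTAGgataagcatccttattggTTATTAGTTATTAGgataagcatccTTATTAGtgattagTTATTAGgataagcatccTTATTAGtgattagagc
The second set holds 2 of the unshared N-C1 peaks of largest fold enrichment. They lie in an intron of IPO11, which encodes a nuclear import receptor (chr5:61799118-61799267), and 174 kb from the forkhead gene FOXN2 (chr2:48367849-48367998).
IPO11: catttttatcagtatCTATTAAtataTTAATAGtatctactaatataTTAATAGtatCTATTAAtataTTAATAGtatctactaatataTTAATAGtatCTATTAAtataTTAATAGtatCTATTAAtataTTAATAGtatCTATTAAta
FOXN2: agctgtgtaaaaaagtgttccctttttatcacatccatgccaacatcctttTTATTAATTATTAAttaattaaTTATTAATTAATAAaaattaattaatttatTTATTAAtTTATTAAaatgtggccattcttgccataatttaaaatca
The third set holds the 3 unshared ∆HD peaks of largest fold enrichment. They lie 45.6 kb from CNEP1R1, which encodes a regulatory subunit of a nuclear envelope phosphatase (chr16:50012648-50012797), in an intron of the receptor gene P2RY8 (chrX:1639390-1639539), and 53.5 kb from FAM230A (chr22:20638844-20638993).
CNEP1R1: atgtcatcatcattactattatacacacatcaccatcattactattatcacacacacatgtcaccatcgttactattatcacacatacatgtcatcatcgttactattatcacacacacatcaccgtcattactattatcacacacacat
P2RY8: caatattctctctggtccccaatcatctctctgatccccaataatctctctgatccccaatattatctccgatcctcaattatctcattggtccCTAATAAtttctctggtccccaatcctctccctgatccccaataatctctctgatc
FAM230A: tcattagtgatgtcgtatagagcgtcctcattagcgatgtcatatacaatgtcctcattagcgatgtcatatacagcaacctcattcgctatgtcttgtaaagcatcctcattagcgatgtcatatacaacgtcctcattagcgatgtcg
These 150 bp held 11 and 6 consensus matches at the unshared N-C1 peaks and 0, 1 and 0 at the unshared ∆HD peaks. A/T content over them was 88.0% and 80.7% against 66.0%, 56.7% and 58.7%. Several of these sequences repeat themselves. Of the 12-base words in the 400 bp at the N-C1 peaks in IPO11 and near FOXN2, 33.2% and 4.11% occurred more than once. At the ∆HD peaks near CNEP1R1, in P2RY8 and near FAM230A these shares were 69.2%, 31.1% and 36.8%.

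Most ∆HD peaks were also N-C1 peaks, and the reverse held less often. Of the ∆HD peaks, 41731 were shared, or 82.6% (82.2 to 82.9), which left 8806 unshared. Of the N-C1 peaks, 42023 were shared, or 66.9% (66.5 to 67.2), which left 20833 unshared. For comparison, 1.68% of all 400 bp tiles of hg19 touched an N-C1 peak and 1.51% touched a ∆HD peak. The N-C1 list was longer by 12319 peaks, and the asymmetry moved with list length. The study's text orders the site counts of the constructs the other way, for a reason not known here. The direction of the asymmetry therefore rests on the deposited lists as labelled. N-C1 stayed the longer list at a fold enrichment of 5 or more (44952 against 39277 peaks). It also did so at a −log10 q of 5 or more (49337 against 47889). When the N-C1 list was cut to the length of the ∆HD list by fold enrichment, 74.5% of ∆HD peaks and 74.8% of the remaining N-C1 peaks were shared. Unshared peaks were seldom near misses in position, while the signal of the other construct under its threshold was not measured there. A peak of the other list lay within 500 bp of 2.62% of the unshared ∆HD peaks and of 3.19% of the unshared N-C1 peaks, and the median distance to it was 12.4 kb and 12.6 kb.

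Sharing followed the strength of the peak in its own list. From the weakest to the strongest quartile by fold enrichment, 56.3%, 79.0%, 95.1% and 99.8% of ∆HD peaks were shared. The same quartiles of the N-C1 list had 35.5%, 53.9%, 81.0% and 97.0%. At a fold enrichment of 10 or more, 13 of 10489 ∆HD peaks were unshared (99.9% shared) and 291 of 12500 N-C1 peaks were unshared (97.7% shared). At 15 or more, 0 of 3984 ∆HD peaks were unshared, which puts the exact lower limit of their shared share at 99.9%. At the same value, 73 of 6071 N-C1 peaks were unshared, with a shared share of 98.8% (98.5 to 99.1). The lists therefore differed at their strong end as well: the unshared N-C1 peaks reached a fold enrichment of 33.1 and the unshared ∆HD peaks 12.2. The median fold enrichment of unshared peaks was 4.91 in the ∆HD list and 4.83 in the N-C1 list, against 7.07 and 7.26 for shared peaks.

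∆HD peaks were the wider ones. The median width was 449 bp for shared and 351 bp for unshared ∆HD peaks, and 370 bp and 281 bp for shared and unshared N-C1 peaks. At the 41699 pairs of mutually best overlapping peaks the ∆HD peak was wider in 81.7% (81.3 to 82.1), with a median excess of 71 bp. The narrowest listed peak was 307 bp in the ∆HD list and 242 bp in the N-C1 list, so the lists also differ in their minimum width, and its part in the difference was not tested. The summits lay close together, with a median distance of 28 bp and 73.9% of pairs within 50 bp. Together the ∆HD peaks covered 23.1 Mb and the N-C1 peaks 23.02 Mb.

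Unshared ∆HD peaks were the least A/T rich. A/T content in 200 bp at the midpoint was 67.3% (67.2 to 67.4) in unshared and 70.4% (70.3 to 70.4) in shared ∆HD peaks. In the N-C1 list it was 71.1% (71.1 to 71.2) in unshared and 70.7% (70.7 to 70.8) in shared peaks. Unshared N-C1 peaks thus held 3.85 percentage points more A/T than unshared ∆HD peaks (3.72 to 3.99). The SD over peaks was 5.86 and 4.22 points in these classes, so single peaks of these kinds overlapped widely. The surroundings differed in the same direction and less. Flanks 1000 to 2000 bp away held 61.4% A/T around unshared ∆HD peaks and 63.2% around unshared N-C1 peaks, against 62.6% around shared peaks of either list. Over its own flanks, the peak gained 5.83 points in unshared ∆HD peaks and 7.93 in unshared N-C1 peaks. The share of peaks above their own flanks was 82.9% and 93.0%. CpG dinucleotides went the other way, with 2.16 per 400 bp in unshared ∆HD peaks, 1.67 in shared ∆HD peaks and 1.496 in unshared N-C1 peaks. All tiles of hg19 averaged 3.93 CpG and 59.1% A/T.

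**Figure D1:**
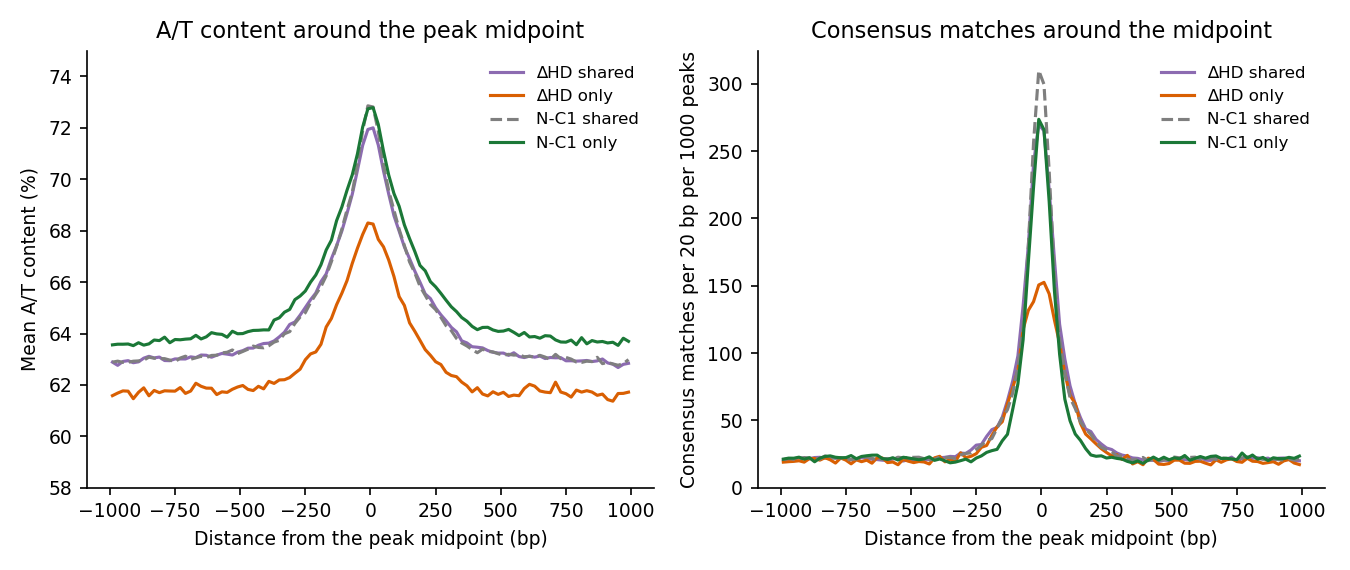
Mean A/T content (left, percent) and consensus matches per 20 bp per 1000 peaks (right) against the distance from the peak midpoint in bp, for shared and unshared peaks of both lists. At the centre the unshared ∆HD line reaches 68.3% A/T and 153 matches, under the other lines at 72.0% to 72.9% A/T and 270 to 310 matches, while from 80 to 99 bp after the midpoint it holds 84.9 matches against 65.9 in unshared N-C1 peaks.

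The A/T difference held within quartiles of fold enrichment. In the 4 quartiles of the ∆HD list, unshared peaks held 66.9%, 68.0%, 67.5% and 61.5% A/T, against 69.8%, 70.2%, 70.4% and 70.8% in shared peaks. The last unshared value rests on 20 peaks (58.01 to 64.9). In the quartiles of the N-C1 list, unshared peaks held 70.8%, 71.1%, 71.8% and 75.6%, against 69.8%, 70.1%, 70.7% and 71.5% in shared peaks, with 470 unshared peaks in the last. The strong unshared peaks of the lists thus lay on opposite sides of the shared peaks in base composition.

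Over all peaks of a class, consensus matches were most frequent in shared peaks, and unshared ∆HD peaks had the fewest when all 4 forms were counted. The mean number in 400 bp was 2.35 (2.33 to 2.36) in shared and 1.75 (1.73 to 1.78) in unshared ∆HD peaks. It was 2.35 (2.34 to 2.36) in shared and 2.00 (1.99 to 2.02) in unshared N-C1 peaks. The share with at least 1 match was 94.9% in shared ∆HD, 88.3% in unshared ∆HD, 94.95% in shared N-C1 and 93.7% in unshared N-C1 peaks, all above the 25.8% of genome tiles. Inside the listed peak itself, 11.7% of unshared ∆HD peaks (11.1 to 12.4) and 7.48% of unshared N-C1 peaks (7.13 to 7.85) held no match. In the central 150 bp, unshared ∆HD peaks held 0.983 matches and unshared N-C1 peaks 1.42. With CTAATAA and CTAATAG alone the order of the unshared classes turned, at 0.757 matches per 400 bp in ∆HD (0.741 to 0.774) and 0.732 in N-C1 (0.722 to 0.742).

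Within quartiles of fold enrichment the order of shared and unshared peaks depended on the list. In the first 3 quartiles of the ∆HD list, unshared peaks held 1.72, 1.80 and 1.83 matches against 2.03, 2.16 and 2.29 in shared peaks, and in the last 1.30 (20 peaks) against 2.72. In the N-C1 list, unshared peaks held fewer in the lower quartiles, at 1.86 and 1.98 against 1.95 and 2.05. In the third they held 2.26 (2.22 to 2.31) against 2.22 (2.20 to 2.24). In the last the order was turned, with 3.8 (3.56 to 4.04) in unshared and 2.77 (2.75 to 2.79) in shared N-C1 peaks.

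The forms of the consensus did not fall in step. TTAATAA was held by 51.1% of unshared ∆HD peaks (50.1 to 52.2), 61.7% of unshared N-C1 peaks (61.1 to 62.4) and 64.2% of shared N-C1 peaks. CTAATAA was held by 45.1% of unshared ∆HD (44.1 to 46.2), 46.1% of unshared N-C1 (45.4 to 46.8) and 53.2% of shared N-C1 peaks. CTAATAG was the form with the reverse order, at 18.9% of unshared ∆HD (18.1 to 19.8) and 16.4% of unshared N-C1 peaks (15.9 to 16.9), with 20.3% of shared N-C1 peaks. TTAATAG stood at 24.1% and 25.8% of unshared ∆HD and N-C1 peaks. Of genome tiles, 12.7% held TTAATAA and 6.88% held CTAATAA, while 3.48% held CTAATAG and 6.58% held TTAATAG.

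Other words were searched in the same 400 bp, and runs of A or T differed most between the unshared classes. Runs of 6 A or 6 T were found in 52.9% of unshared ∆HD peaks (51.9 to 54.0) and 67.3% of unshared N-C1 peaks (66.6 to 67.9), with 60.9% of shared N-C1 peaks and 57.1% of tiles. The homeodomain core TAATTA, which reads the same on both strands, was found in 45.7% and 48.1% of unshared ∆HD and N-C1 peaks and in 52.0% of shared peaks, against 16.3% of tiles. The AP-1 words TGACTCA and TGAGTCA were found in 5.95% (5.47 to 6.47) and 5.52% (5.21 to 5.83), near the 6.09% of tiles. The forkhead word TGTTTAC or its reverse complement GTAAACA was found in 7.74% and 8.04%, with 6.20% of tiles.

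The number of consensus matches in a peak went with sharing in different ways in the lists. In the ∆HD list the shared share went from 67.4% (65.7 to 69.01) with no match to 75.5% with 1, 82.1% with 2, 92.0% with 4 and 98.8% (96.5 to 99.8) with 7 or more, where 3 of 247 peaks were unshared. In the N-C1 list it was 61.8% (60.1 to 63.4) with no match, 59.9% with 1, 63.8% with 2, 79.5% with 4 and 84.5% (82.9 to 86.1) with 5 or 6. With 7 or more matches it was lower again, at 76.3% (71.6 to 80.6), where 86 of 363 peaks were unshared. Genome tiles with 7 or more matches made up 0.00560% of all tiles.

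**Figure D2:**
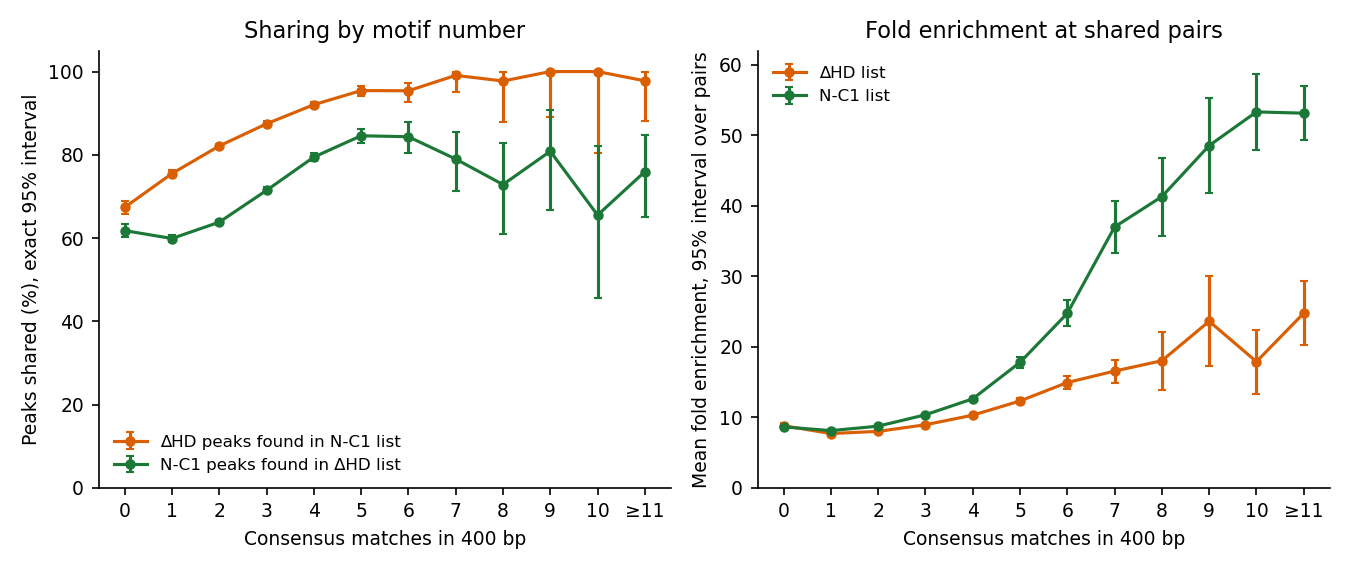
Share of peaks found in the other list in percent (left, exact 95% intervals) and mean fold enrichment at shared pairs (right, 95% intervals over pairs), against the number of consensus matches in 400 bp, in orange for ∆HD and green for N-C1. The N-C1 share falls from 84.5% at 5 or 6 matches to 76.3% at 7 or more. Mean fold enrichment is 8.11 in N-C1 and 7.70 in ∆HD at 1 match, and 17.8 and 12.3 at 5. The lists have no common scale of fold enrichment, and by rank pairs with 1 match stood 1.2 percentile points higher in ∆HD.

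The 86 unshared N-C1 peaks with 7 or more matches were not weak. Their median fold enrichment was 10.5 and their range 3.61 to 33.1, against a median of 46.3 at the 277 shared peaks with as many matches. Of these 86, 98.8% overlapped a peak of full-length Satb1 in untreated cells, and 98.8% did so after camptothecin and after ICRF-193. The 277 shared peaks stood alike, at 98.6%, 98.6% and 98.9%, so this overlap did not set the 86 apart. Nearly all of the 86 sites were thus listed for the full-length protein and for N-C1 and not for ∆HD. They lay on 23 chromosomes, and 4 of them had a ∆HD peak within 500 bp. They were A/T rich, at 81.1% against 77.5% in the shared ones. Repetition within the window moved with this difference. At least 20% of the 12-base words of the 400 bp occurred more than once in 39.5% of the unshared and 15.5% of the shared peaks with 7 or more matches. Among those with such repetition, 43 of 77 were shared, or 55.8% (44.1 to 67.2). Among those without it, 234 of 286 were shared, or 81.8% (76.9 to 86.1). With 5 or 6 matches the shares were 84.6% (69.5 to 94.1) and 84.5%. The part of repeated sequence in the result was not tested beyond these values.

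Named examples show the arrangement. Among the strongest unshared N-C1 peaks, the IPO11 peak (chr5:61798858-61799557) had a fold enrichment of 31.2, 14 matches and 82.5% A/T. The peak near FOXN2 (chr2:48367676-48368284) had 29.3, 6 matches and 79.0% A/T. Of its 12-base words, 4.11% were repeated exactly, a measure that can miss imperfect repeats of shorter units. The peak in an intron of DLG2, which encodes a synaptic scaffold protein (chr11:83288116-83288515), had 28.9, 10 matches and 64.0% A/T. The peak in an intron of ATXN1, which encodes ataxin-1 (chr6:16593948-16594656), had 26.6, 1 match and 82.5% A/T. These 4 peaks overlapped a peak of full-length Satb1 in each of its 3 lists, and the nearest ∆HD peak lay between 3.07 kb and 54.1 kb away. The unshared N-C1 peak with the most matches, 18, lay 79.9 kb from NMNAT3, which encodes an enzyme of NAD synthesis (chr3:139476243-139477084), with a fold enrichment of 20.6. Of the 12-base words of its window, 27.5% were repeated.

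The strongest unshared ∆HD peaks looked different. The first, near CNEP1R1 (chr16:50012419-50012989), had a fold enrichment of 12.2, 1 match and 66.5% A/T. The P2RY8 peak (chrX:1638420-1639763) had 11.99, 3 matches and 55.5% A/T, and the peak near FAM230A (chr22:20638620-20639224) had 11.9, 1 match, 57.5% A/T and 23 CpG in 400 bp. The peak 13.4 kb from the zinc finger gene ZNF516 (chr18:74055975-74056721) had 11.3, 0 matches and 63.5% A/T. The peak far from UQCRFS1, which encodes a subunit of respiratory complex III (chr19:28260766-28262250), had 11.1, 1 match and 51.0% A/T. Of these 5, the P2RY8 peak alone overlapped a peak of full-length Satb1 in untreated cells, and none overlapped one after camptothecin or ICRF-193. Between 24.4% and 69.2% of the 12-base words of their windows were repeated. The unshared ∆HD peak with the most matches, 11, lay in an intron of MRPS9, which encodes a mitochondrial ribosomal protein (chr2:105670646-105672048), and had a fold enrichment of 5.94.

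The 100 strongest unshared peaks of each list differed in the same traits, but their ranges of fold enrichment do not meet. Those of N-C1 (fold enrichment 13.9 to 33.1) held 77.8% A/T and 5.55 matches on average. All 100 overlapped a full-length Satb1 peak in untreated cells, after camptothecin and after ICRF-193. Those of ∆HD (7.83 to 12.2) held 65.6% A/T, 1.48 matches and 3.52 CpG, and 12 of 100 overlapped a full-length peak in untreated cells. This overlap rose with fold enrichment in every class. In the strongest quartile of its list it reached 91.2% of shared ∆HD and 91.1% of shared N-C1 peaks. The counts of the 100 strongest are therefore not a comparison at like strength. No consensus match was present in 24 of the ∆HD and in 4 of the N-C1 windows. Repeated 12-base words made up 20% or more of the window in 18 of the ∆HD and 19 of the N-C1 peaks. In 11 of the 100 ∆HD and 5 of the 100 N-C1 peaks, at least 50% of sampled 32-base words at the centre occurred more than once in hg19.

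A dispersed palindromic sequence was found more often in unshared ∆HD peaks. It was chosen after the data were seen, because it was frequent in unshared ∆HD peaks, so its frequencies are a description. The word GGTGTACA or its reverse complement TGTACACC was present in 2.35% of unshared ∆HD windows (2.04 to 2.69), 0.595% of unshared N-C1 windows (0.495 to 0.709), 1.11% of shared ∆HD windows and 0.757% of genome tiles. The 207 unshared ∆HD peaks with the word lay on 20 chromosomes, held 60.9% A/T and 0.652 consensus matches, and 115 of them held no consensus match. The 463 shared ∆HD peaks with the word held 67.5% A/T and 2.43 matches, and 271 of them overlapped a full-length Satb1 peak, against 2 of the unshared ones. The unshared ∆HD peak with the most matches to either word in its window, 9, lay between genes on chromosome 6. A full GGTGTACACC holds both words and was counted for each. The peak lay 1241 kb from the nearest protein-coding gene HACE1 (chr6:103934761-103935282) with a fold enrichment of 3.86. Its sequence at chr6:103934827-103934976 holds 58.7% A/T and no consensus match, and capitals mark the word and its reverse complement.
Site far from HACE1: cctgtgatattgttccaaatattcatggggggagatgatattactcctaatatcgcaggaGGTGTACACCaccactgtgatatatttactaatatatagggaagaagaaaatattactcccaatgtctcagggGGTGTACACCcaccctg

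Where a peak held exactly 2 consensus matches, their spacing differed as well. In unshared N-C1 peaks the starts were 8 to 12 bp apart in 10.7% of 7927 peaks (9.99 to 11.4), in shared N-C1 peaks in 8.86% of 13983 (8.39 to 9.34), and in unshared ∆HD peaks in 4.74% of 3016 (4.01 to 5.56). At 13 to 17 bp the shares were 5.21%, 5.44% and 4.87%. At 18 to 22 bp they were 8.21%, 7.26% and 4.51%. Values near 10 and near 20 bp thus stood above those between them in unshared and shared N-C1 peaks, and the 3 shares of unshared ∆HD peaks lay within each other's intervals. The spacing of 9 bp accounted for 310 unshared N-C1 peaks (3.91%) and 37 unshared ∆HD peaks (1.23%). The median spacing was 49 bp, 53 bp and 76 bp in unshared N-C1, shared N-C1 and unshared ∆HD peaks. In N-C1 peaks with 5 or more matches, 14.6% of neighbouring starts in unshared peaks (13.1 to 16.2) and 10.2% in shared peaks (9.63 to 10.9) were 8 to 12 bp apart.

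**Figure D3:**
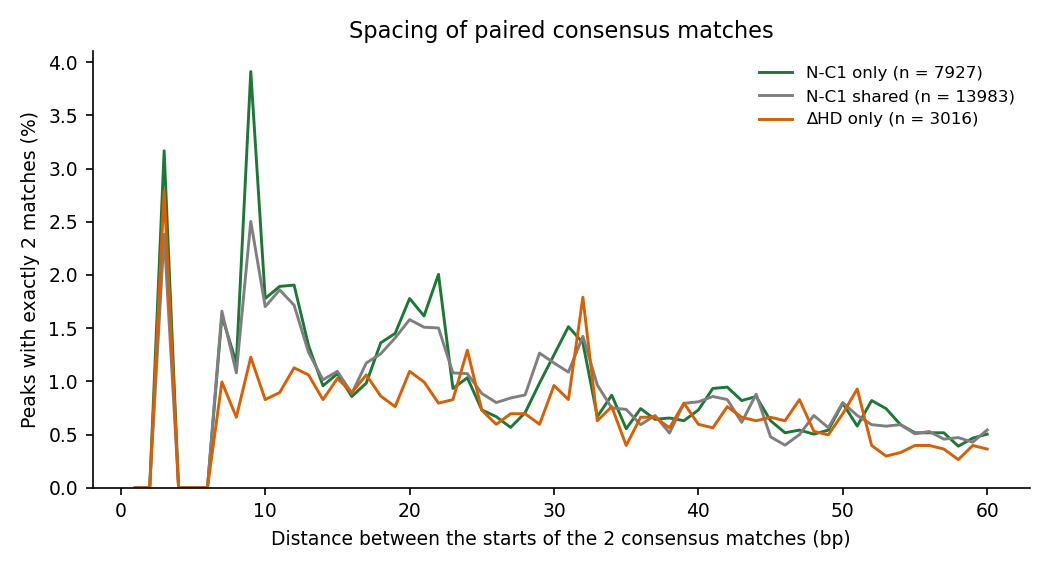
Share of the peaks with exactly 2 consensus matches (percent) against the distance between the starts of the matches in bp, for unshared N-C1, shared N-C1 and unshared ∆HD peaks. The unshared N-C1 line reaches 3.91% at 9 bp, where the unshared ∆HD line is at 1.23%.

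Fold enrichment ranked shared sites alike in both lists. Over the 41699 mutually best pairs, the Spearman correlation of the fold enrichments was 0.737 and the Pearson correlation 0.773. These are correlations across sites that share sequence and background, with 1 list each, and not across replicates. Within quartiles of N-C1 fold enrichment, which span unequal ranges and so cannot be compared with each other, the Spearman value was 0.142, 0.136, 0.274 and 0.619 from weak to strong. By the place of the N-C1 summit it was 0.768 at 226 promoters, 0.718 at 543 exons, 0.741 at 16034 introns and 0.734 at 24896 intergenic sites. The lists of strongest sites overlapped in part. The first 100 pairs by ∆HD fold enrichment and the first 98 by N-C1 fold enrichment (ties decide the number) had 35 in common, or 35.0% and 35.7%. Of the first 1008 and 998, 483 were in common, or 47.9% and 48.4%.

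**Figure D4:**
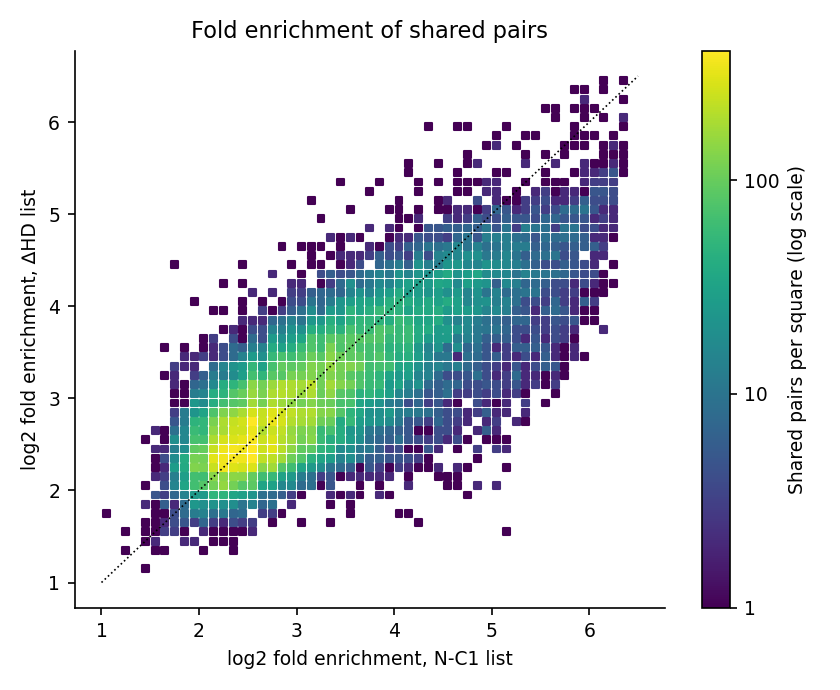
log2 fold enrichment in the ∆HD list against that in the N-C1 list for 41699 shared pairs, with the number of pairs per square as colour on a log scale and a dotted line of equal values. The Spearman correlation is 0.737. Pairs weak in N-C1 lie mostly above the line and pairs strong in N-C1 mostly below it, and the lists have no common scale of fold enrichment.

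Ranks differed by consensus number mainly at pairs with no match and at those with 5 or more. At shared pairs the mean fold enrichment rose with the number of matches in both lists, from 7.70 (7.61 to 7.79) in ∆HD and 8.11 (7.99 to 8.24) in N-C1 at 1 match to 12.3 and 17.8 at 5. At 7 matches the means were 16.6 (14.9 to 18.2) and 37 (33.3 to 40.7), and at 11 or more 24.8 (20.2 to 29.3) and 53.1 (49.4 to 56.9). Fold enrichments of different lists are not on a common scale, so ranks were compared among the pairs, as percentiles from 0 for the weakest to 100 for the strongest. Pairs without a match stood 4.97 percentile points higher in ∆HD than in N-C1 (4.03 to 5.91). At 1, 2, 3 and 4 matches, which held 8391, 13888, 10760 and 4600 pairs, the ∆HD minus N-C1 differences were small. They were 1.2 (0.75 to 1.62), -0.18 (-0.52 to 0.17), -0.67 (-1.06 to -0.27) and -0.20 points (-0.81 to 0.41). The 1382 pairs with 5 matches stood higher in N-C1, with a difference of -2.41 points (-3.52 to -1.31). So did the 334 pairs with 6 matches, with -6.89 points (-9.46 to -4.32), and the 51 pairs with 8 matches, with -18.5 points (-25.1 to -11.96). The correlation of match number with fold enrichment over all pairs was 0.200 in ∆HD and 0.255 in N-C1, and that of A/T content was 0.0798 and 0.149. Width went with fold enrichment in both lists, at 0.778 and 0.720.

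Of the 41699 pairs, 3112 ranked at least 30 percentile points higher in ∆HD and 3184 at least 30 points higher in N-C1. Since these pairs were picked by rank, their rank is no finding, and their sequence is given as a description. Pairs higher in ∆HD held 2.16 matches and 69.6% A/T, and 29.0% overlapped a full-length Satb1 peak. Pairs higher in N-C1 held 2.59 matches and 72.1% A/T, and 56.0% overlapped one, against 48.8% of the remaining pairs.

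The pairs with the lowest summed ranks were strong in both lists. The intergenic site far from CT83 had fold enrichments of 88.0 in ∆HD (chrX:116225629-116231154) and 84.1 in N-C1 (chrX:116225579-116231119), with widths of 5526 and 5541 bp. The GPC6 site had 77.0 (chr13:94070439-94071552) and 84.1 (chr13:94070291-94071619), with 19 and 20 matches. The KDM5A site had 65.3 (chr12:441499-442314) and 83.3 (chr12:441485-442346), and it overlapped an ATAC-seq region of native cells. A site on chromosome 7, within the annotated body of the gene ENSG00000272647 but outside its protein-coding transcripts, had 67.6 (chr7:99192913-99195063) and 81.2 (chr7:99193101-99195795) and overlapped such a region too. The site 720 kb from TRIB2, which encodes a pseudokinase, had 60.4 (chr2:13602292-13603204) and 83.8 (chr2:13602316-13603222) with 11 matches. All 5 overlapped full-length Satb1 peaks in each of its 3 lists. The shared site with the most matches, 21 in 400 bp, lay near TBC1D1, which encodes a Rab GTPase-activating protein (chr4:37885113-37886354), and had fold enrichments of 29.2 in ∆HD and 47.0 in N-C1.

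The pairs with the largest rank differences, 3 each way, had few matches when higher in ∆HD and many when higher in N-C1. All of them also held more repeated sequence than the average shared peak. An intronic site of the potassium channel subunit gene DPP6 had a fold enrichment of 22.5 in ∆HD (chr7:153961549-153962426) and 3.40 in N-C1, with 0 matches. A site near TEKT5, which encodes a tektin (chr16:10794122-10795828), had 16.6 and 3.92, with 0 matches at the ∆HD midpoint and 2 at the N-C1 midpoint. A site far from LRRC74B (chr22:21539190-21539996) had 15.04 and 4.31, with 0 and 1 matches and 23 and 20 CpG. In the other direction, a site 95.8 kb from the phosphofructokinase gene PFKP had 35.4 in N-C1 (chr10:3012365-3013129) and 2.99 in ∆HD, with 13 matches. An intronic site of the potassium channel gene KCNH7 (chr2:163597379-163598141) had 33.6 and 4.05 with 13 matches, and a site 27.2 kb from the glutamine transporter gene SLC38A1 (chr12:46549354-46550102) had 33.1 and 4.05 with 12 matches. The 3 sites higher in N-C1 overlapped full-length peaks in each of the 3 lists, and their A/T content was 82.5% to 84.5%.

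Overlap with full-length Satb1 set the unshared classes apart. Shared ∆HD peaks overlapped a peak of full-length Satb1 in 47.9% of cases in untreated cells, 47.5% after the topoisomerase I inhibitor camptothecin and 64.2% after the topoisomerase II inhibitor ICRF-193. Unshared N-C1 peaks did so in 8.07% (7.71 to 8.45), 11.4% (10.9 to 11.8) and 21.6% (21.1 to 22.2). Unshared ∆HD peaks did so in 1.73% (1.46 to 2.02), 3.84% (3.45 to 4.26) and 9.79% (9.18 to 10.4). The full-length lists held 22877, 24475 and 37350 peaks. The difference between the unshared classes held in each quartile of their own fold enrichment: in untreated cells the 4 quartiles gave 1.10%, 1.93%, 5.69% and 25% for ∆HD and 2.41%, 5.82%, 21.1% and 82.1% for N-C1, the 25% resting on 20 peaks. Seen from the 22877 full-length peaks, 87.9% overlapped both constructs, 7.31% (6.98 to 7.66) N-C1 without ∆HD and 0.713% (0.608 to 0.830) ∆HD without N-C1. The median fold enrichment in the full-length list was 7.38, 7.04 and 5.22 in these groups.

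**Figure D5:**
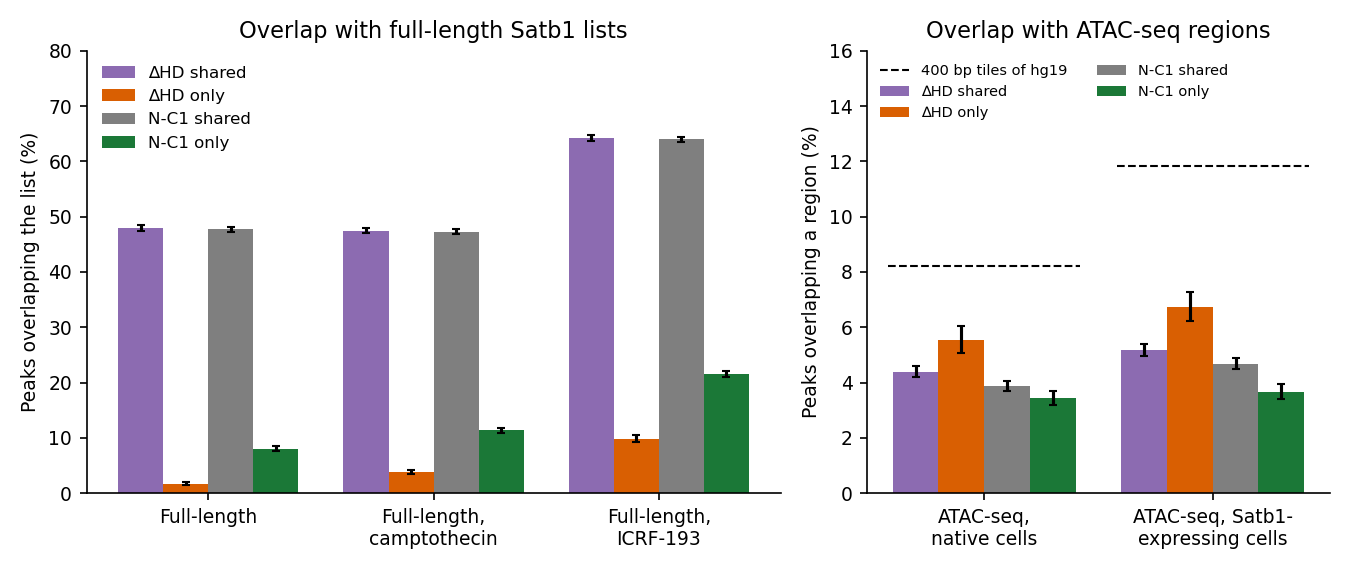
Share of peaks (percent, exact 95% intervals) that overlap full-length Satb1 peaks in untreated, camptothecin-treated and ICRF-193-treated cells (left) and ATAC-seq regions (right), for shared and unshared peaks of both lists, with dashed lines for 400 bp tiles of hg19. Unshared N-C1 peaks stand at 8.07% to 21.6% and unshared ∆HD peaks at 1.73% to 9.79% on the left, and every class lies under the tiles on the right.

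Few peaks of any class overlapped accessible chromatin. ATAC-seq reads come from DNA open to a transposase. In native MCF10A cells, 5.53% of unshared ∆HD peaks (5.06 to 6.03), 4.40% of shared ∆HD peaks (4.21 to 4.601), 3.87% of shared N-C1 peaks (3.69 to 4.06) and 3.44% of unshared N-C1 peaks (3.19 to 3.69) overlapped an ATAC-seq region. All lay under the 8.21% of 400 bp tiles. In cells expressing Satb1 the shares were 6.75%, 5.18%, 4.69% and 3.67%, against 11.8% of tiles. ∆HD peaks are wider and so can touch more regions. At the summit alone, which does not depend on width, 3.44% of unshared ∆HD peaks (3.07 to 3.84), 1.99% of shared peaks of either list and 2.05% of unshared N-C1 peaks (1.87 to 2.26) lay in a region of native cells, while these regions covered 5.76% of the bases of hg19.

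The place of the peaks relative to genes hardly differed. Summits lay between genes in 59.7% of shared ∆HD, 59.7% of unshared ∆HD, 59.8% of shared N-C1 and 59.8% of unshared N-C1 peaks. Introns held 38.4%, 38.3%, 38.4% and 38.2%, and exons 1.34%, 1.37%, 1.30% and 1.46%. Promoters, which run here from 1000 bp before a transcription start to 100 bp after it, held 0.537%, 0.636% (0.481 to 0.825), 0.538% and 0.557% (0.460 to 0.667). The median distance to a protein-coding start was 93.6 kb for unshared ∆HD and 114 kb for unshared N-C1 peaks, with 106 kb for shared peaks.

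Sharing varied by region. Unshared peaks made up 28.3% of the ∆HD peaks of chromosome 19, 22.4% of those of chromosome 16 and 14.0% of those of chromosome 21. In the N-C1 list the unshared share was 35.3% on chromosome 20 and 23.2% on chromosome 22. In 277 windows of 10 Mb with 50 or more ∆HD peaks, the unshared share ran from 7.62% to 49.4% with a median of 17.6%. Its highest value, 38 of 77 peaks (37.8 to 61), was at 20 to 30 Mb of chromosome 19. In 278 windows with as many N-C1 peaks it ran from 17.3% to 44.8% with a median of 32.8%, and its highest value, 90 of 201 (37.8 to 51.9), was at 0 to 10 Mb of chromosome 18. Across these windows the unshared share correlated with the A/T content of the flanks at -0.53 (Spearman) in the ∆HD list and 0.38 in the N-C1 list, where windows of a list share its library.

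Genes with peaks of the constructs were largely the same. Of 20136 protein-coding genes, 30.5% held a ∆HD summit in the gene body and 32.5% an N-C1 summit, while 11.7% held an unshared ∆HD summit and 18.2% an unshared N-C1 summit. Summits of both lists lay in 5700 genes, of ∆HD without N-C1 in 447 and of N-C1 without ∆HD in 835. The extreme cases were ELK4, an ETS factor gene with 3 ∆HD peaks and 0 N-C1 peaks, and RAB3GAP1, which encodes a regulator of Rab3 and had 5 N-C1 peaks and 0 ∆HD peaks. The share of genes with a peak went with gene length. Of 5249 genes under 10 kb, 2.59% held a ∆HD and 2.99% an N-C1 peak, and of 324 genes of at least 500 kb, 99.7% held a peak of each list. The unshared share of peaks was 16.8% to 18.9% for ∆HD and 31.2% to 34.2% for N-C1 in all 4 length classes.

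The genes with the most unshared N-C1 peaks were long. CSMD3, which encodes a large membrane protein, held 160 N-C1 peaks, 66 of them unshared, and 100 ∆HD peaks with 8 unshared. The receptor tyrosine phosphatase gene PTPRD held 114 with 49 unshared and 72 with 7 unshared. LRP1B, of the LDL receptor family, held 106 with 41 unshared and 77 with 12 unshared. PCDH15, which encodes a protocadherin of the inner ear, held 104 with 39 unshared and 70 with 6 unshared. The genes with the most unshared ∆HD peaks were EYS, a retinal gene with 14 of 79, the neuronal receptor gene LINGO2 with 12 of 41, the orphan nuclear receptor gene ESRRG with 12 of 48, LRP1B with 12 of 77 and DLG2 with 11 of 54.

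Gene groups were described by their counts beside the shares of all genes above. Of 26 synaptic adhesion genes, 18 held a ∆HD and 18 an N-C1 peak, and 64 of 446 ∆HD and 190 of 574 N-C1 peaks were unshared (14.3% and 33.1%). CNTN5, which encodes a contactin, held 52 ∆HD peaks with 4 unshared and 72 N-C1 peaks with 24 unshared, while the neurexin gene NRXN3 held 30 with 8 unshared and 29 with 6 unshared. Of 22 glutamate receptor genes, 17 held a ∆HD and 16 an N-C1 peak, with 39 of 219 and 106 of 288 unshared (17.8% and 36.8%). Of 13 type II cadherin genes, 10 held peaks of each list, with 18 of 122 and 44 of 147 unshared. CDH12 held 33 with 3 unshared and 46 with 17 unshared, and CDH18 held 42 with 8 unshared in either list. These genes are long, with medians of 350 kb, 388 kb and 158 kb, and length was not separated from group.

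Of 13 ERBB and neuregulin genes, 7 held a ∆HD and 8 an N-C1 peak. The receptor gene ERBB4 held 55 with 7 unshared and 66 with 17 unshared, and the ligand gene NRG1 held 20 with 3 unshared and 26 with 9 unshared. EGFR held 1 unshared ∆HD peak, and the ligand genes EREG and TGFA held 2 and 1 unshared N-C1 peaks and no ∆HD peak. Of 15 genes of the epithelial to mesenchymal transition, 8 held a peak of each list. ZEB1 held 6 ∆HD peaks with 3 unshared and 4 N-C1 peaks with 1 unshared, ZEB2 held 5 with 1 unshared and 6 with 2 unshared, and the ligand gene TGFB2 held 5 with 3 unshared and 2 with 0 unshared. Of 14 basal mammary genes, 6 held a ∆HD and 5 an N-C1 peak, and TP63, the basal transcription factor gene, held 7 with 1 unshared and 11 with 5 unshared. Of 12 luminal genes, 4 held peaks of each, and the estrogen receptor gene ESR1 held 12 with 4 unshared in either list. Of 20 T cell genes tied to Satb1, 7 and 8 held peaks, with 1 of 9 and 4 of 12 unshared. IL2, RAG2 and GATA3 each held 1 shared peak, and IL2RA held 1 unshared N-C1 peak. SATB1 itself held 5 peaks in each list with 1 unshared. Of 87 ribosomal protein genes, 2 and 3 held a peak, and of 39 HOX genes, 3 held shared peaks of both lists.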

How the data were processed

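ChIP-seq of eGFP-tagged ∆HD and N-C1 in MCF10A was analysed as 1 deposited peak list each, beside 3 lists of full-length Satb1 and 2 ATAC-seq lists. The authors trimmed reads with cutadapt, aligned them to hg19 with Bowtie2 and ran MACS2 with input DNA as control for ChIP-seq. ATAC-seq regions were called as broad peaks. The study gives a version for read trimming and a range of depth over its ChIP libraries. Versions of Bowtie2 and MACS2, pooling of duplicates and the depth of each single list are not given in the sources used here. The authors' fold enrichment is a ratio of pileup to local background. Significance was deposited by peak as −log10 of the p-value and of the q-value. The smallest −log10 q was 1.46 in the ∆HD and 1.32 in the N-C1 list. The study's reporting summary names a stricter false discovery rate for peak calling than these values, so the lists reach beyond it. The smallest fold enrichment was 2.08 and 1.89.

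Overlaps needed 1 bp. A/T content, consensus matches and features were computed on hg19 and GENCODE 44 lifted to it, on protein-coding transcripts. Repetition was measured as the share of 12-base words occurring more than once in 400 bp, and as the share of 15 words of 32 bases per peak found more than once in hg19. Functions tested on simulated data differed from bedtools in 0 of 2000 overlaps and missed or added 0 of 2119 planted matches. Mouse VL3 lists, TMP-seq, the N construct and input libraries were not used here. Members, lists and measures were chosen with earlier results of these data known.

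Named peaks were the 5 shared pairs of lowest summed rank, the 5 unshared peaks of largest fold enrichment per list, the peak with most matches per class, and the 3 pairs of largest rank difference each way. Named genes were the 5 with most unshared peaks per list, with genes of the lists. Some items that these rules name are not reported here. ELK4, RAB3GAP1 and the palindromic site were chosen after their values were seen. Tools were Python 3.11.15, numpy 2.4.6, pandas 2.3.3, scipy 1.17.1, pysam 0.24.0, numba 0.67.0, matplotlib 3.10.9, bedtools 2.31.1 and samtools 1.23.1. Alternatives covered overlap, thresholds, windows, consensus, annotation and pairing.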

Additional observations from a re-analysis of the deposited data

How the results depend on the processing

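Shares of shared peaks were bounded by few settings. For ∆HD and N-C1 peaks they were 80.6% and 64.8% with 50% reciprocal overlap, 83.0% and 67.9% with a partner within 500 bp, 81.2% and 71.2% at a fold enrichment of 5 or more, 76.8% and 74.8% at a −log10 q of 5 or more, and 74.5% and 74.8% with lists of equal length. The differences in width, A/T content and match number between unshared and shared peaks of a list kept their direction in all 18 values given by the alternatives tried. The smallest was the A/T difference in the N-C1 list, 0.382 points, which was 0.129 points in 100 bp. With CTAATAA and CTAATAG alone, means fell to 0.932 in shared ∆HD, 0.757 in unshared ∆HD, 0.933 in shared N-C1 and 0.732 in unshared N-C1 peaks, which turned the order of the unshared classes. With transcripts of every type, intergenic shares were 39.7% and 39.96% in shared and unshared ∆HD and 39.7% and 40.0% in shared and unshared N-C1 peaks. ATAC-seq shares in native cells, in the order shared ∆HD, unshared ∆HD, shared N-C1 and unshared N-C1, were 1.99%, 3.44%, 1.99% and 2.05% at the summit and 3.25%, 4.08%, 2.87% and 2.73% with regions of −log10 q of 5 or more. Overlap with full-length peaks at a fold enrichment of 5 or more in all lists was 55.1%, 2.85%, 54.9% and 14.0% in this order. The rank correlation lay between 0.737 and 0.742 under all 3 alternatives. Leaving out repetitive peaks, chosen after seeing the data, moved neither share beyond its interval and gave A/T means of 67.5% in unshared ∆HD and 71.1% in unshared N-C1 peaks. No paired analysis was possible because each construct has 1 list without a replicate number. Peaks near the threshold depend on depth, which is not given for each list, so sharing of weak peaks is bounded least.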
